A study of Caenorhabditis elegans with 32 samples.

Results

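RNA-seq of whole worms was used to ask which transcripts depend on *hlh-30* when *pgph-2* is overexpressed and glucose is in excess. Animals of the genotype *pgph-2 o/e; hlh-30*, hereafter the double mutant, were compared to *pgph-2 o/e* animals, both on 2% glucose, with 4 libraries in each group, which makes 8 of the 32 libraries of the series. All genes were taken, and libraries were assigned by their labels. The *pgph-2 o/e* animals carry an integrated transgene of *pgph-2* under its own promoter with a pharyngeal *myo-2p*::mCherry marker, and the double mutants carry the *hlh-30(tm1978)* allele in addition. Both groups were synchronized animals labelled L4/young adult, grown on normal growth medium (NGM) plates with 2% glucose added, and both therefore share the transgene and the glucose. The transgene is 1 integrated line, the *hlh-30* loss is 1 allele, and *hlh-30* is lost in the whole animal. WT, *hlh-30(tm1978)* and the same 2 transgenic genotypes on NGM served for comparison, with 4 libraries each. The study states 4 biological replicates, while the labels give only replicate numbers.

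HLH-30 is the worm homologue of TFEB, a basic helix-loop-helix transcription factor that enters the nucleus upon nutrient shortage and infection and activates genes of autophagy, lysosomes, lipid breakdown and host defence. PGPH-2 is a glycerol-3-phosphate phosphatase, which turns glycerol-3-phosphate into glycerol and so diverts glucose carbon away from fat synthesis. Larvae build a new cuticle from collagens at each molt, L4 hermaphrodites make sperm before they make oocytes, and the adult intestine makes yolk, so genes of these processes turn on and off in sequence around the L4 to adult transition.

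Library totals ranged from 17036463 to 20800784 counts in *pgph-2 o/e* and from 17369158 to 22466953 in the double mutant, and 1 count was worth 0.043 to 0.059 CPM (counts scaled to a common library total). Levels are TMM-scaled CPM, which are not corrected for gene length. No marker of intestine, body wall muscle, hypodermis, pharynx or neurons was at 0 in every library. The mean log2 CPM of 71 sperm genes differed between the groups, with 1.61, 1.45, 2.78 and 2.52 in *pgph-2 o/e* and 2.94, 3.06, 3.43 and 2.92 in the double mutant. Every double mutant library was therefore above every *pgph-2 o/e* library on this score, and replicates 3 and 4 of *pgph-2 o/e* were above replicates 1 and 2. Because sperm, cuticle and yolk genes follow developmental timing, their levels are given in WT and in *hlh-30* animals as well. In whole animals, fewer cells of a type and less RNA per cell cannot be told apart.

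The targeted gene was first measured in each library. *hlh-30* (W02C12.3, IV:4015615-4019039, minus strand, WBcel235) was at 131, 141, 132 and 151 CPM in *pgph-2 o/e* and at 73.4, 74.5, 72.5 and 64.5 CPM in the double mutant. The groups did not overlap, and the transcript was lower by 0.99 on the log2 scale in the double mutant (SE 0.07, edgeR adjusted P = 1.8e-05). About as much was left in *hlh-30* single mutants on glucose, with a mean of 69.9 ± 8.54 CPM (SD, n = 4) against 103 ± 14.3 CPM in WT. Counts are per gene, and the position of the tm1978 deletion is not given in the sources used here, so transcript that is still counted says nothing of protein.

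The overexpressed gene itself was also lower without *hlh-30* on glucose. *pgph-2* (F44E7.2, V:5770455-5771767, plus strand) was at 106, 112, 133 and 143 CPM in *pgph-2 o/e* and at 90, 73.7, 91.3 and 79.3 CPM in the double mutant, with no overlap. This is 1.51-fold lower in the double mutant (log2 fold change -0.59, SE 0.10, edgeR adjusted P = 0.0048). In WT on glucose *pgph-2* was at 63.5 to 73.7 CPM, which reached the lowest double mutant library at 73.7 CPM. In *hlh-30* single mutants on glucose it was at 28.1 to 43.9 CPM, so it was lower without *hlh-30* in animals with no transgene as well. The NGM libraries held 60.7 to 86.6 CPM for *pgph-2 o/e*, 107 to 137 CPM for the double mutant, 30.5 to 44.3 CPM for WT and 24.5 to 61.5 CPM for *hlh-30*. On NGM the difference between the transgenic genotypes thus ran the other way, at 0.87 on the log2 scale, and the difference between the media was -1.46 (SE 0.17, edgeR adjusted P = 5.6e-06). In the fit over all 32 libraries the adjusted P of the glucose difference was 0.059. The groups compared therefore did not carry equal *pgph-2* transcript, and what part of any other difference follows from this was not tested.

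Across the transcriptome, 376 of 15031 genes tested were upregulated (2.5%) and 150 were downregulated (0.998%) in the double mutant. A gene was called at an adjusted P of at most 0.05 in edgeR's quasi-likelihood test and a change of at least 2-fold. Of the upregulated genes 353 did not overlap between the groups, against 10.4% of all genes tested in this direction, 64 changed by at least 2 on the log2 scale and 13 by at least 3, and of the downregulated genes 136 did not overlap (8.4% of all genes tested), 15 changed by at least 2 and 4 by at least 3. The calls and the overlap rest on the same libraries, so the first 2 counts are a description. The adjusted P alone, without the fold limit, called 931 genes higher (6.19%) and 1059 lower (7.05%). Single libraries moved the number of upregulated genes: it was 223 without replicate 2 of *pgph-2 o/e*, 223 without replicate 3 of the double mutant and 697 without replicate 3 of *pgph-2 o/e*. With the sperm score as a covariate 96 genes were higher and 62 lower, and 57 of the 376 and 50 of the 150 genes were among them.

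**Figure D1:**
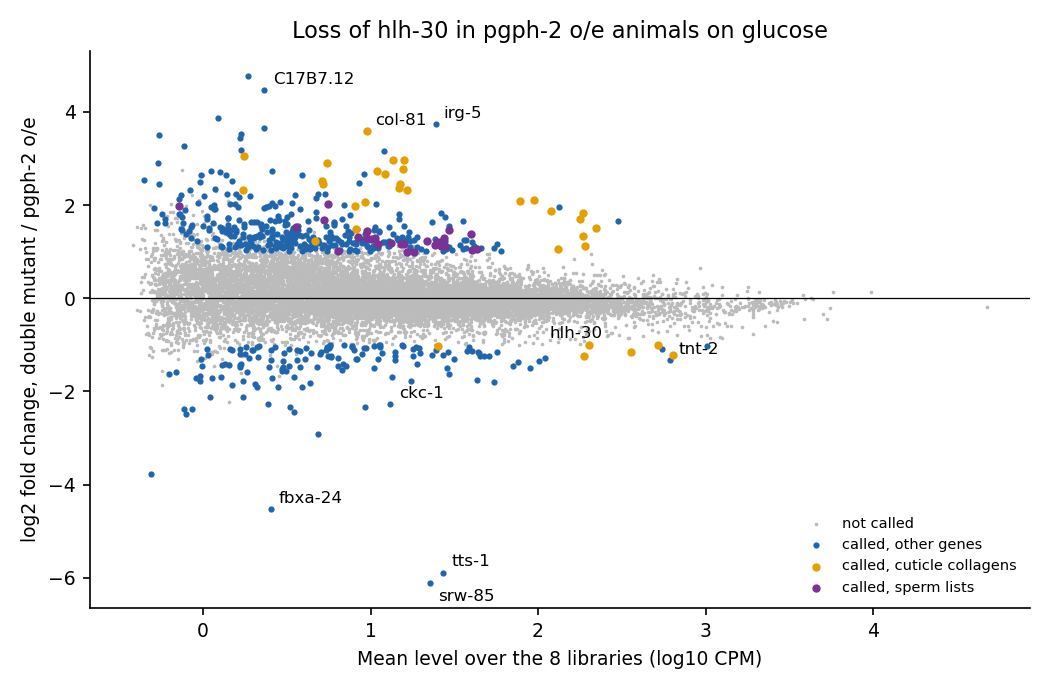
Log2 fold change of the double mutant over *pgph-2 o/e* on glucose (vertical axis) against the mean level (horizontal axis, log10 CPM) for the genes tested, 1 point per gene, with the 376 upregulated and 150 downregulated genes in colour, collagens and sperm genes set apart. Most points lie near 0, while *srw-85* and *tts-1* stand lowest.

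The steepest falls were those of a receptor and a noncoding RNA. *srw-85* (C25F9.1, V:19429440-19431039, minus strand), a serpentine receptor of class W, was at 39.9, 45, 46.1 and 46.2 CPM in *pgph-2 o/e* and at 0.555, 0.953, 0.41 and 0.756 CPM in the double mutant. The transcript was thus close to lost in each double mutant library, a 68.8-fold difference (log2 fold change -6.10, SE 0.17, edgeR adjusted P = 5.3e-09). *tts-1*, a long noncoding RNA that lowers ribosome levels in long-lived mutants, was at 59.5, 39.1, 54 and 59.3 CPM and fell to 0.726, 2.47, 0.182 and 0.432 CPM (log2 fold change -5.89, SE 0.41). Both genes were also near 0 in *hlh-30* single mutants on glucose, where *srw-85* averaged 0.597 and *tts-1* 0.679 CPM against 18.6 and 53.8 CPM in WT. For *srw-85* the fall on glucose exceeded the one on NGM by 2.13 on the log2 scale (SE 0.41, edgeR adjusted P = 6.8e-04), while for *tts-1* the media differed by -0.29 (SE 0.52, adjusted P = 0.71).

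Other genes with large falls on glucose fell on NGM as well. *fbxa-24*, an F-box gene, was at 4.46, 3.57, 3.14 and 8.21 CPM in *pgph-2 o/e* and at 0.171, 0.224, 0.182 and 0.27 CPM in the double mutant, the latter resting on 4 to 5 counts per library. *ckc-1*, a choline kinase of phosphatidylcholine synthesis, was at 20.9, 21.3, 24.3 and 20.2 CPM and at 3.63, 4.2, 5.88 and 4.7 CPM. All 4 double mutant libraries were well below the lowest *pgph-2 o/e* library in both genes, and *ckc-1* fell 4.81-fold (SE 0.15 on the log2 scale, edgeR adjusted P = 1e-05). *mdl-1*, which encodes a Mad-like helix-loop-helix factor, went from 157, 144, 122 and 155 CPM to 51.6, 42.5, 79.4 and 60.2 CPM, a fall by 1.34 on the log2 scale (adjusted P = 5.7e-04). The alcohol dehydrogenase gene *adh-1* went from 135, 137, 153 and 198 CPM to 69.3, 50.7, 67.5 and 73.3 CPM (log2 fold change -1.29, adjusted P = 3.3e-04). Both fell more on NGM than on glucose, with a difference between the media of 1.06 for *mdl-1* and 2.30 for *adh-1*.

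**Figure D2:**
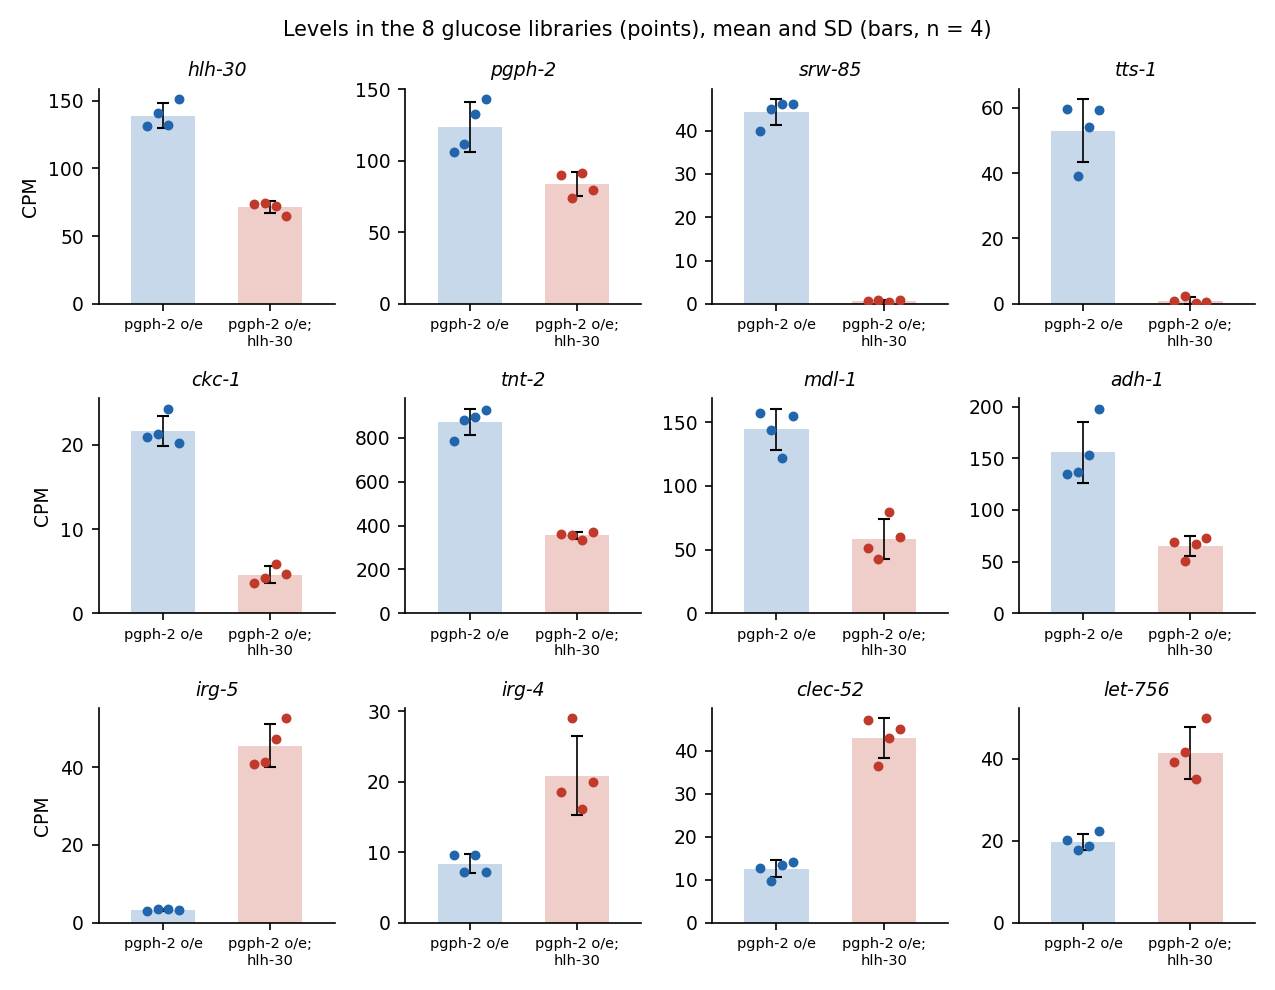
Levels of 12 genes (CPM) in each glucose library of *pgph-2 o/e* and the double mutant, with points for the 4 libraries of a group and bars for the mean ± SD. The groups do not overlap in any of these genes, and *irg-5*, *irg-4*, *clec-52* and *let-756* are the ones that are higher in the double mutant.

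Muscle transcripts were lower in the double mutant. *tnt-2*, a troponin T gene, was at 787, 882, 896 and 926 CPM in *pgph-2 o/e* and at 362, 358, 334 and 372 CPM in the double mutant. The 2 groups were far apart, and the fall of 2.5-fold (log2 fold change -1.32, SE 0.07, edgeR adjusted P = 1.3e-06) had the same size in *hlh-30* over WT, at -1.32. None of the 6 body wall muscle markers passed both limits, but 5 were lower by the adjusted P alone. Of these, *unc-15*, which encodes paramyosin, was at 2234, 2450, 2385 and 2526 CPM and at 1375, 1403, 1462 and 1547 CPM (log2 fold change -0.76), and *unc-27*, a troponin I gene, changed by -0.60. The summed level of the muscle markers was 10694, 11805, 11396 and 11935 CPM in *pgph-2 o/e* and 8125, 8496, 8059 and 8541 CPM in the double mutant. Pharyngeal markers moved in the same direction, from 1570 to 1900 CPM down to 1395 to 1541 CPM in sum, with 3 of 6 lower by the adjusted P alone. Unlike the muscle markers, all 6 pharyngeal markers were higher on NGM and in *hlh-30* over WT, with median changes of 0.43 and 0.94 against -0.32 and -0.35 for muscle. Intestinal markers overlapped between groups, at 2087 to 2322 and 1893 to 2161 CPM, and 1 of 6 was called, the metallothionein gene *mtl-2*, which was at 16.7, 22.2, 20.7 and 17.1 CPM and at 10.2, 12.4, 5.74 and 6.75 CPM; without replicate 3 of the double mutant its change was 0.99 in size on the log2 scale.

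Further falls among the 12 steepest concerned noncoding and little described genes. *rncs-1*, a noncoding RNA that inhibits Dicer and rises upon starvation, was at 51.2, 70.5, 98.2 and 117 CPM in *pgph-2 o/e* and at 20.7, 34.5, 17.3 and 26.2 CPM in the double mutant (log2 fold change -1.81, SE 0.26). The libraries of the double mutant were all lower, although *pgph-2 o/e* spread over more than 2-fold. *C40H1.7* fell by 2.34, *F55H12.2* by 1.78, *Y54G2A.11* by 1.75, *F17C11.4* by 1.63, *F53A9.8* by 1.51 and *F45D3.4* by 1.5 on the log2 scale, and their adjusted P values lay between 1.4e-05 and 5.6e-04. *Y105C5B.5* fell by 1.54 (adjusted P = 0.029), a call that was lost without replicate 4 of *pgph-2 o/e* or replicates 3 or 4 of the double mutant, with adjusted P values of up to 0.089. *pqn-2* fell by 1.70 and stayed within 1 on the log2 scale in the other comparisons, at 0.25 on NGM and 0.58 in *hlh-30* over WT. The nuclear receptor gene *nhr-19* fell from 21, 16.9, 18.1 and 22.4 CPM to 7.09, 8.8, 9.43 and 8.64 CPM, and was the 1 called member of 191 nuclear hormone receptors tested.

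*irg-5*, an infection response gene with a CUB-like domain, was at 3.14, 3.51, 3.5 and 3.19 CPM in *pgph-2 o/e* and at 40.8, 41.4, 47.2 and 52.6 CPM in the double mutant. Within either group the libraries were close together, and between the groups *irg-5* rose 13.3-fold (log2 fold change 3.74, SE 0.12, edgeR adjusted P = 7.6e-09). *irg-4*, another infection response gene, rose 2.43-fold (SE 0.19 on the log2 scale), with no overlap between the groups. In all, 4 of 18 genes of this list were upregulated and 0 were downregulated, and *irg-2* (log2 fold change 1.68) and *dod-23* were the others. The median change of the 18 genes was -0.06, and by the adjusted P alone 6 were higher and 3 lower. *dod-23* was close to the limit of detection, at 0.0571, 0.0595, 0 and 0.507 CPM in *pgph-2 o/e* and at 0.854, 0.897, 1.18 and 0.81 CPM in the double mutant, and its call was lost in 7 of the 8 fits that left out 1 library (all but that without replicate 4 of *pgph-2 o/e*), with adjusted P values of up to 0.1. The rise of *irg-5* was also found on NGM (2.80) and in *hlh-30* over WT (3.98), and it was larger by 0.93 on glucose than on NGM (SE 0.22, edgeR adjusted P = 0.0034).

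C-type lectins, which bind sugars and are often induced by pathogens, had 6 upregulated and 3 downregulated members of 115. Their median change was -0.01, and over all genes tested 2.5% were higher and 0.998% lower. *clec-52* was at 12.7, 9.81, 13.5 and 14.2 CPM in *pgph-2 o/e* and at 47.1, 36.5, 43 and 45.1 CPM in the double mutant (3.33-fold, edgeR adjusted P = 1.4e-05). *clec-67* went from 26.2, 37.5, 34.8 and 38.6 CPM to 66.7, 98.2, 66.2 and 66.7 CPM (2.13-fold). Neither overlapped between the groups, and *clec-67* fell short of 2-fold without replicate 1 of *pgph-2 o/e* or replicate 2 of the double mutant (down to 0.92 on the log2 scale). The 3 lectins that fell became 1 without replicate 1 or 2 of *pgph-2 o/e* or replicate 4 of the double mutant. Of the *pals* family, which belongs to the intracellular pathogen response, 4 of 18 rose and 0 fell: *pals-14* by 2.70, *pals-37* by 2.20, *pals-6* by 1.62 and *pals-39* by 1.56 on the log2 scale. On NGM 10 *pals* genes rose, and *pals-6* rose more there, with a difference between the media of -2.09 (SE 0.38).

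Several rises fell outside the lists. 2 neighbouring ABC transporter genes on X, *pgp-5* and *pgp-8*, rose together: *pgp-5* from 12.1, 14.7, 16.5 and 15.1 CPM to 38.3, 63, 37.2 and 37.8 CPM, and *pgp-8* by 1.30 on the log2 scale. *let-756*, a fibroblast growth factor gene, was at 20.3, 17.8, 18.7 and 22.3 CPM and rose to 39.1, 41.6, 35.1 and 49.9 CPM (2.05-fold, edgeR adjusted P = 5.1e-04), and fell short of 2-fold without replicate 2 or 3 of *pgph-2 o/e* or replicate 4 of the double mutant (down to 0.93 on the log2 scale). *ndnf-1* rose from 7.43, 11.7, 11.9 and 14.4 CPM to 49.9, 41.1, 27.7 and 46.3 CPM. The groups were apart in all of these. *T28A11.16*, *F35F10.5* and *F17B5.1* rose by 2.01, 2.47 and 3.16. *C17B7.12* rose by 4.47 from a very low level, 2 to 6 counts per library in *pgph-2 o/e* against 68 to 117 in the double mutant.

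The response on glucose was then set against the loss of *hlh-30* in 2 comparisons that share no library with it, namely the double mutant over *pgph-2 o/e* on NGM and *hlh-30* over WT on glucose. These called 1152 of 15199 genes higher (7.58%) and 1621 lower (10.7%) on NGM, and 902 of 15316 higher (5.89%) and 2254 lower (14.7%) in *hlh-30* over WT. Of the 14631 genes tested in all 3, 21 (0.144%) were lower each time, which is 15.3% of the 137 downregulated genes tested throughout. They included *srw-85*, *tts-1*, *fbxa-24*, *ckc-1*, *mdl-1*, *tnt-2*, *adh-1* and the saposin-like gene *spp-2*. Likewise 41 of the 14631 genes (0.28%) were higher each time, or 11.6% of the 354 upregulated genes tested throughout. Among these 41 were *irg-5*, *irg-4*, *clec-67*, *pgp-5*, *pgp-8*, *let-756*, *ndnf-1*, *pals-6*, *pals-14*, *C17B7.12* and *F35F10.5*. With the sperm score as a covariate 18 of these 21 and 25 of these 41 calls were kept. The score itself was 4.00 to 4.86 in WT and 0.30 to 2.94 in *hlh-30* animals on glucose.

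Most upregulated genes went the other way elsewhere. Of the 354 genes higher in the double mutant on glucose, 184 (52%) were lower in both other comparisons, 191 (54%) were lower on NGM, which is 12.9% of the genes lower there, and 249 (70.3%) were lower in *hlh-30* over WT, or 12.7% of those. Of the 137 genes that were lower, 30 (21.9%) were higher in both. The difference between media was itself past the limits for 270 of the 376 upregulated genes in the positive direction and for 15 in the negative, against 12.2% and 6.54% of 15801 genes tested for it. The difference between *pgph-2 o/e* and WT backgrounds on glucose was past the limits for 283 and 6 of them, against 14.6% and 5.84% of 15908. Both interactions contain the 8 glucose libraries by which these genes were called, so these counts describe the genes and are no independent support. Of the 150 downregulated genes 73 were past the limits in the negative direction and 3 in the positive in the medium interaction, and 83 and 0 in the background interaction, while 74 and 67 were not past them.

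**Figure D3:**
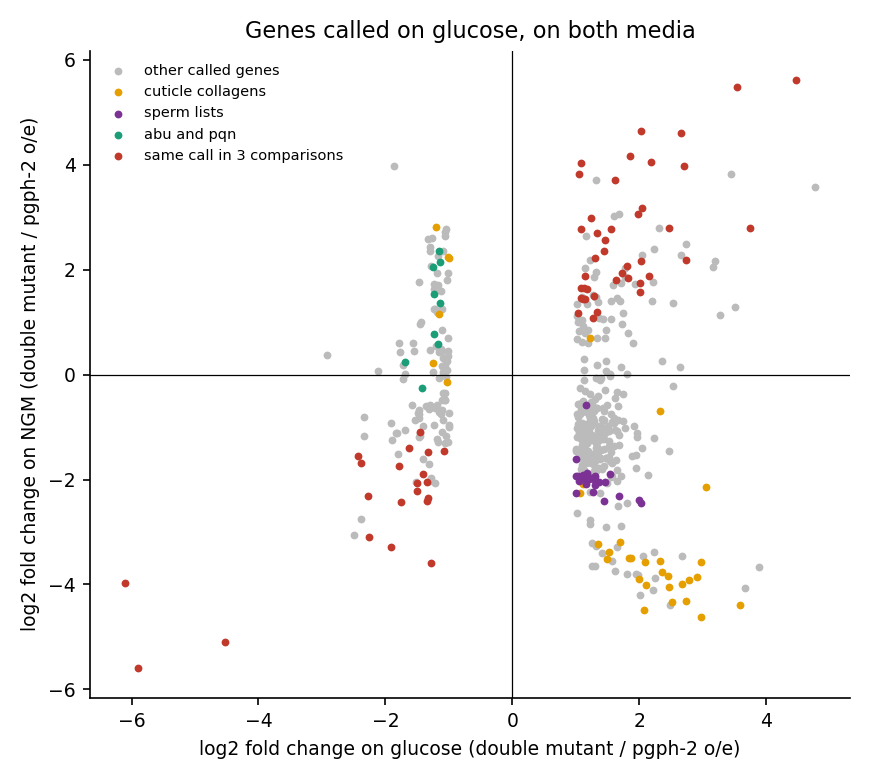
Log2 fold change of the double mutant over *pgph-2 o/e* on glucose (horizontal axis) against the same difference on NGM (vertical axis), 1 point per gene called on glucose. Genes called in the same direction in all 3 comparisons (red) lie on the same side of 0 on both media, while most collagen and sperm genes are above 0 on glucose and below 0 on NGM.

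Cuticle collagens had the most calls of any list, with 27 of 132 upregulated and 6 downregulated. Over all genes tested 2.5% were higher and 0.998% lower. By the adjusted P alone the list was split, with 29 collagens higher and 32 lower. *col-81* was at 1.09, 1.61, 1.34 and 1.67 CPM in *pgph-2 o/e* and at 13.8, 3.03, 41.7 and 12.2 CPM in the double mutant. Replicate 3 of the double mutant was highest and replicate 2 lowest, yet the 4 libraries were above all of *pgph-2 o/e* (log2 fold change 3.59, SE 0.64, edgeR adjusted P = 0.0054). Replicate 3 of the double mutant was highest and replicate 2 lowest also in *col-60*, at 24.3, 10.3, 56.5 and 21.8 CPM against 2.06 to 5.93 CPM, and in *col-129*, at 18.8, 5.21, 54.1 and 19.2 CPM against 2.67 to 3.5 CPM. *col-20*, *col-88*, *col-178*, *col-120* and *col-122* rose by 2.36 to 2.91 on the log2 scale, and *col-140* and *col-19* by 2.74 and 2.52 with groups that overlapped. WT levels on glucose were far above both groups, with 141 ± 75.6 CPM for *col-81* (SD, n = 4), and *hlh-30* animals were at 5.65 ± 7.75 CPM.

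Of the 27 collagens that rose, 25 were lower on NGM and 26 in *hlh-30* over WT. For *col-81* the 2 media differed by 7.98 (SE 0.80, edgeR adjusted P = 1.1e-06). *bli-1*, a collagen of the struts of the adult cuticle, was at 91, 91.8, 194 and 99.6 CPM and rose to 235, 246, 334 and 237 CPM, although by only 0.98 on the log2 scale without replicate 3 of the double mutant. The summed level of all collagens was lower in 3 of the 4 double mutant libraries than in any *pgph-2 o/e* library, with 42504, 46596, 35896 and 45255 CPM against 35950, 32959, 32633 and 34506 CPM, and the median change of the 132 genes was -0.17 against 0.00 for all genes tested. With the sperm score as a covariate 3 of the 27 calls were kept, namely *col-138*, *col-63* and *col-49*. The 27 became 23 without replicate 3 of the double mutant, and the 6 that fell became 2 in the fit over all 32 libraries, 0 with the covariate, 3 without replicate 1 or 2 of *pgph-2 o/e* or replicate 3 of the double mutant, and 10 without replicate 3 of *pgph-2 o/e*.

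**Figure D4:**
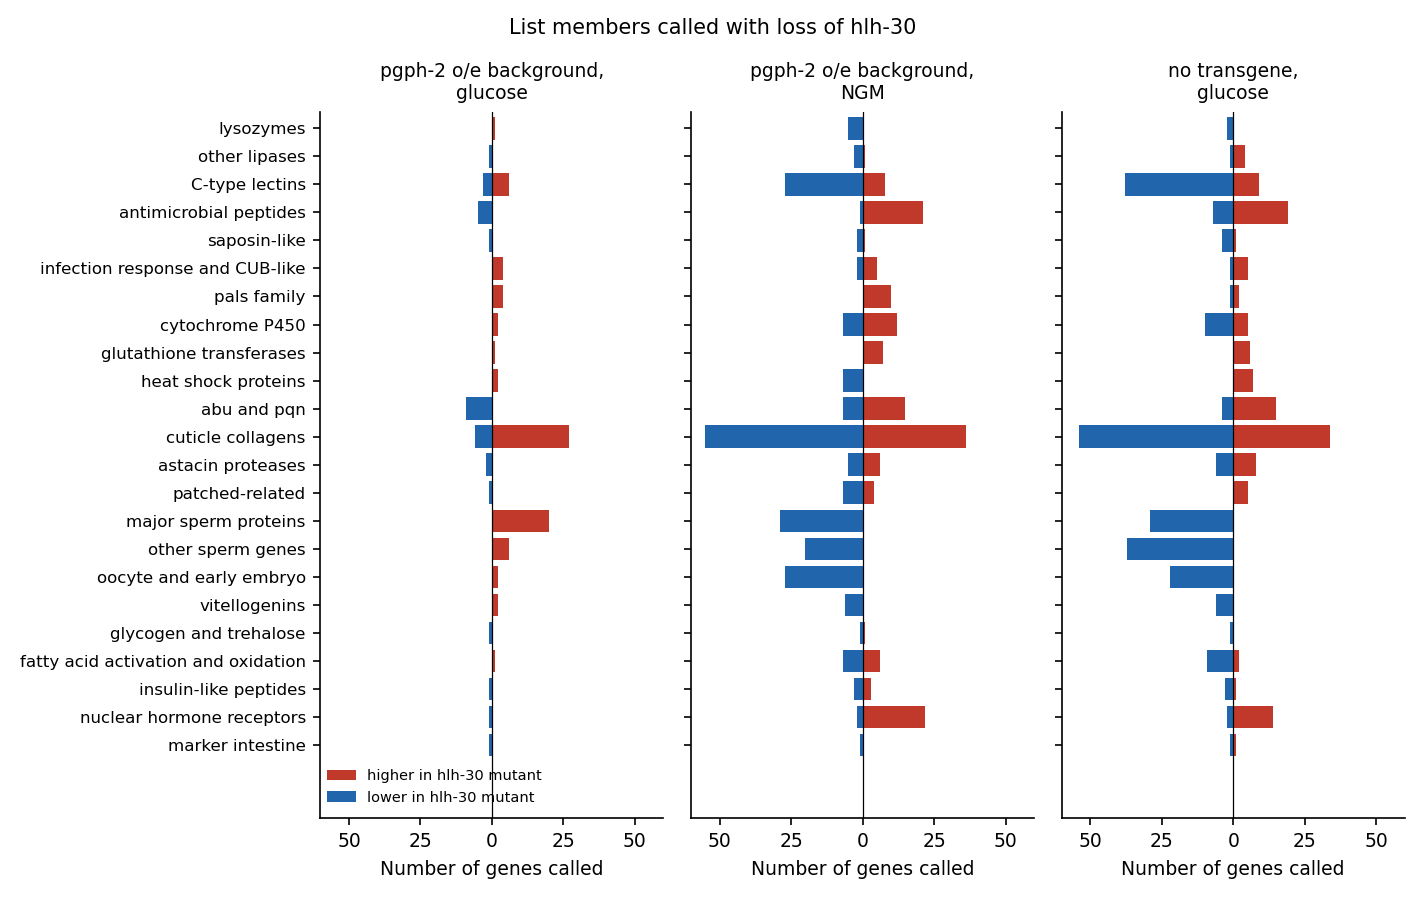
Numbers of upregulated (to the right) and downregulated (to the left) genes in each list with at least 1 call, for the double mutant over *pgph-2 o/e* on glucose, the same on NGM and *hlh-30* over WT on glucose. On glucose the longest bars are 27 cuticle collagens and 20 major sperm proteins higher, while on NGM and in *hlh-30* over WT both lists have more genes lower.

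The collagens that fell were those of another set. *col-41* was at 1238, 1090, 446 and 771 CPM in *pgph-2 o/e* and at 482, 344, 308 and 435 CPM in the double mutant, so that replicate 3 of *pgph-2 o/e* was below 1 library of the other group. *col-157* fell 2.37-fold (SE 0.22 on the log2 scale), with 152 to 327 CPM against 88.9 to 147 CPM and no overlap. *col-54* and *dpy-1* fell by 0.85 and 0.93, less than 2-fold, with overlapping groups, and neither held its adjusted P throughout: *dpy-1* reached 0.055 without replicate 2 of *pgph-2 o/e*, and *col-54* reached up to 0.078 in 6 of the 8 fits that left out 1 library (without replicate 1, 2 or 4 of *pgph-2 o/e* or replicate 2, 3 or 4 of the double mutant). *col-41*, *dpy-1* and *col-54* were higher without *hlh-30* on NGM, by 2.81, 2.54 and 2.86, and in *hlh-30* over WT, by 4.37, 3.71 and 3.77.

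The *abu* and *pqn* genes, which encode proteins with prion-like domains, some of them of the pharyngeal cuticle, had 9 of 59 downregulated and 0 upregulated members. In the fit over all 32 libraries 4 were downregulated, and with the sperm score as a covariate 1 was downregulated and 1 upregulated. *abu-7* was at 57.8, 80.7, 52 and 61.5 CPM in *pgph-2 o/e* and at 26.6, 22.6, 25.1 and 34.1 CPM in the double mutant (log2 fold change -1.25, edgeR adjusted P = 6.6e-04). *pqn-54* was at 69.7, 88.5, 45.4 and 61.9 CPM and at 29.8, 23.8, 29.9 and 31.2 CPM. Neither gene overlapped between the groups, while the summed levels of the list did, with 3581 to 4594 CPM against 3252 to 3650 CPM. On NGM 15 of these genes rose and 7 fell, and in *hlh-30* over WT 15 rose and 4 fell. The astacin proteases *nas-27* and *nas-1*, of a metalloprotease family with several members used in molting, fell by 2.33 and 1.28. They were the only 2 of 26 that were called. *idpc-7* fell by 1.06 (less than 2-fold, down to 0.92 in size, without replicate 2 of *pgph-2 o/e* or replicate 3 of the double mutant), and *grl-4*, a ground-like gene related to hedgehog, and *C29F3.3* fell by 0.82 and 0.75, which did not reach 2-fold. In the fit over all 32 libraries *col-41*, *col-54*, *dpy-1*, *idpc-7*, *C29F3.3* and *grl-4* were no longer past the adjusted P.

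Sperm transcripts were higher in the double mutant. Of 29 major sperm proteins, cytoskeletal proteins of crawling sperm that also act as oocyte maturation signals, 20 were upregulated and 0 downregulated. *msp-81* was at 16.6, 11.6, 31.9 and 26.8 CPM in *pgph-2 o/e* and at 42.9, 46.9, 87.2 and 53.6 CPM in the double mutant (2.59-fold, SE 0.29 on the log2 scale, edgeR adjusted P = 0.012). All double mutant libraries were above the highest *pgph-2 o/e* library. *msp-76* rose by 1.46, *msp-65* by 2.02 and *ssp-10*, a sperm-specific family member, by 1.45. In sum the family took 231, 178, 519 and 431 CPM in *pgph-2 o/e* and 640, 739, 1052 and 649 CPM in the double mutant. In WT on glucose *msp-81* averaged 145 ± 54.8 CPM, above both groups. The family in sum took 1417 to 3076 CPM in WT and 62.5 to 612 CPM in *hlh-30* animals on glucose. All 20 genes were lower on NGM and in *hlh-30* over WT, where each of the 29 tested was lower.

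These sperm counts depended on single libraries. The 20 became 6 without replicate 3 of the double mutant, 8 without replicate 2 and 10 without replicate 1 of *pgph-2 o/e*, and 26 without replicate 3 of *pgph-2 o/e*. It was 2 in the fit over all 32 libraries, where *msp-81* and *msp-76* were not called. The sperm score is the mean of these same genes and the other sperm genes, so a fit with it as a covariate cannot speak to them. *msp-65* had an adjusted P of 0.064 without replicate 3 of the double mutant and *ssp-10* one of 0.056 without replicate 2 of *pgph-2 o/e*. Of 37 other sperm genes 6 rose and 0 fell, which became 2 without replicate 2 and 15 without replicate 3 of *pgph-2 o/e*. Their summed level was 205 to 373 CPM in *pgph-2 o/e* and 370 to 500 CPM in the double mutant.

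A few yolk and eggshell genes were also higher. *vit-2*, a vitellogenin, was at 12.3, 12.3, 19.4 and 22.7 CPM in *pgph-2 o/e* and at 32.1, 30.4, 112 and 43.6 CPM in the double mutant, with replicate 3 of the double mutant far above the others. It rose 3.17-fold (SE 0.39 on the log2 scale, edgeR adjusted P = 0.017), and WT on glucose averaged 180 ± 128 CPM. *vit-5* was at 0.571, 0, 0.36 and 0.355 CPM and at 1.02, 0.168, 12.3 and 3.62 CPM, groups that overlapped. These were 2 of 6 vitellogenins, and 0 were called in the fit over all 32 libraries, with the sperm score as a covariate or without replicate 2 of *pgph-2 o/e*, where *vit-2* had an adjusted P of 0.054; *vit-5* lost its call in 6 of the 8 fits (all but those without replicate 1 or 2 of the double mutant), with adjusted P values of up to 0.15. Of the 32 genes of oocytes and early embryos 2 rose, *perm-4* by 2.01 and *perm-2* by 1.98, both of which encode proteins of the eggshell permeability barrier. The other 30 genes of the list did not pass the limits, and its summed level was 1161 to 1286 CPM against 1124 to 1642 CPM. Vitellogenins on glucose took 51.3 to 89.9 CPM in sum in *pgph-2 o/e* and 82.8 to 288 CPM in the double mutant. They took 273 to 922 CPM in WT and 24.4 to 147 CPM in *hlh-30* animals.

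**Figure D5:**
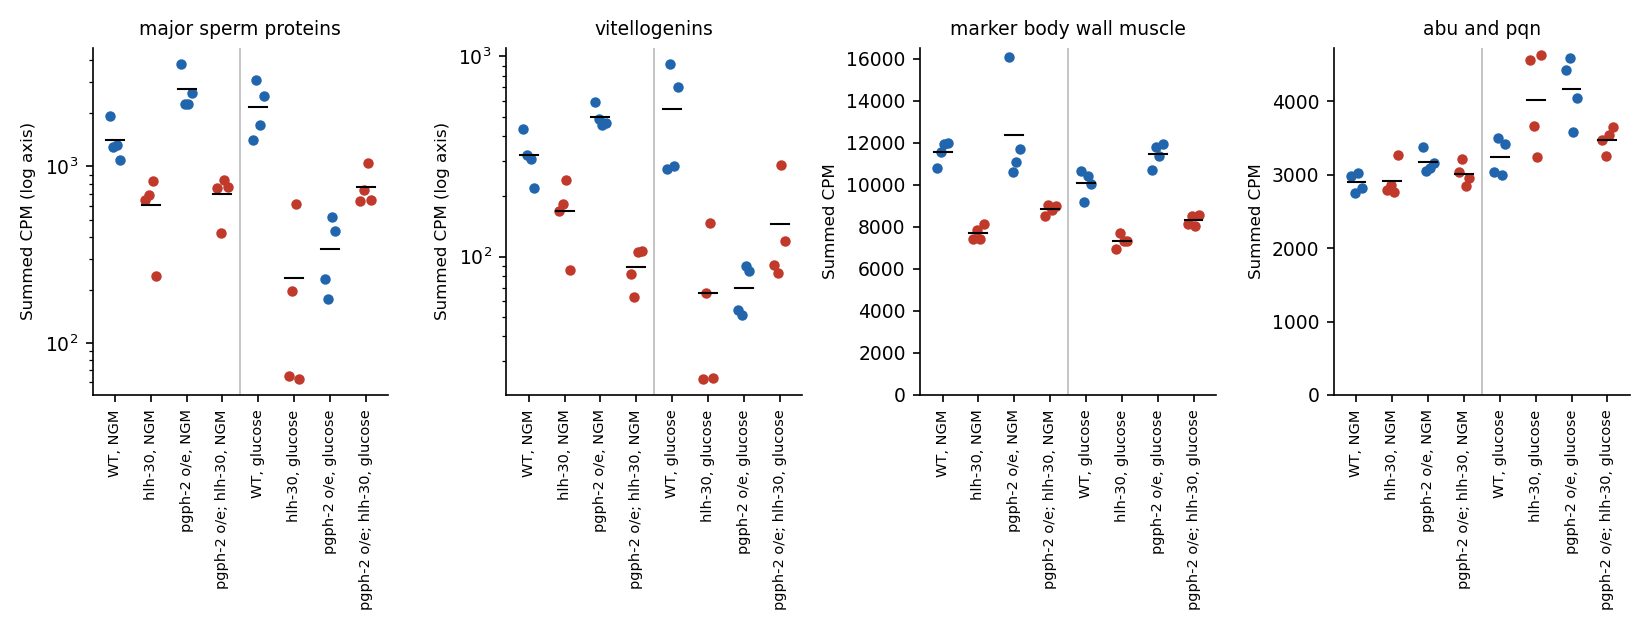
Summed level (CPM) of major sperm proteins, vitellogenins, body wall muscle markers and *abu* and *pqn* genes in each of the 32 libraries, by group. The panels of sperm proteins and vitellogenins have log axes, each point is 1 library and lines mark group means. Sperm proteins were at 178 to 519 CPM in *pgph-2 o/e* and 640 to 1052 CPM in the double mutant on glucose, while muscle markers were higher in *pgph-2 o/e*, at 10694 to 11935 against 8059 to 8541 CPM.

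Lysosome and autophagy genes, the best known targets of HLH-30, had few calls, and so had all genes tested, with 2.5% higher and 0.998% lower. Of 28 autophagy genes none was called in either direction by edgeR or by DESeq2. By the adjusted P alone 5 were lower and 0 higher, beside 7.05% lower and 6.19% higher over all genes tested. *lgg-2*, an Atg8 homologue of autophagosome membranes, was at 58.6, 61.4, 61.9 and 70 CPM in *pgph-2 o/e* and at 42.6, 42.9, 41.8 and 47.9 CPM in the double mutant (log2 fold change -0.56, SE 0.08, edgeR adjusted P = 0.0016). The other Atg8 homologue *lgg-1* was lower by 0.44 on the log2 scale, from 222 to 253 CPM to 169 to 202 CPM, and *atg-18* by 0.33. Neither *lgg* gene overlapped between the groups. *atg-4.1* was at 34.8 to 38.7 CPM and 35.9 to 37.6 CPM (log2 fold change -0.02, SE 0.07, adjusted P = 0.88). On NGM *lgg-2* and *atg-18* were lower by 1.08 and 0.76.

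Lysozymes, secreted or lysosomal enzymes that cut bacterial cell walls, had 1 upregulated member of 13. *lys-4* was lower, at 764, 743, 784 and 767 CPM in *pgph-2 o/e* and at 582, 486, 564 and 531 CPM in the double mutant, a difference of less than 2-fold (log2 fold change -0.53, SE 0.06, edgeR adjusted P = 6.8e-04). Its neighbour *lys-5* was at 6.8, 5.95, 9.36 and 6.33 CPM and at 4.44, 3.59, 2.46 and 5.02 CPM (log2 fold change -0.91, adjusted P = 0.029), and adjusted P values reached 0.062 without replicate 3 or 4 of *pgph-2 o/e* or replicate 2 or 3 of the double mutant. *lys-6* was at 4.51 to 7.81 CPM and 3.55 to 5.13 CPM, with overlap and no call (log2 fold change -0.55, adjusted P = 0.1). *lys-7* was at 184, 178, 163 and 216 CPM and at 269, 193, 320 and 287 CPM (log2 fold change 0.50, adjusted P = 0.033). The groups overlapped in *lys-7*, the adjusted P rose to at most 0.093 in 6 of the 8 fits that left out 1 library (all but those without replicate 4 of *pgph-2 o/e* or replicate 2 of the double mutant) and was above 0.05 in the fit over all 32 libraries, and the media differed by 1.75, since *lys-7* was lower by 1.26 on NGM. *lys-3* was the called member, at 0.874 to 1.37 CPM and 2.63 to 3.12 CPM, and *ilys-2* differed by 0.67 with an adjusted P of 0.26.

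Among the other lysosomal lists, the 7 lysosomal acid lipases, 21 V-ATPase subunits, 21 lysosomal proteases and 14 lysosome membrane genes had no called member in edgeR or DESeq2. By the adjusted P alone, 2 lipases were higher and 0 lower, and 0 V-ATPase subunits differed in either direction. On the same measure 0 proteases were higher and 8 lower, while 3 membrane genes were higher and 2 lower. Over all genes tested 6.19% were higher and 7.05% lower by it. *lipl-7*, a lysosomal lipase gene, rose by 0.88 on the log2 scale from 8.01 to 11.4 CPM to 16.6 to 20.1 CPM, short of 2-fold. The aspartic protease gene *asp-12* was at 155 to 241 CPM and 98.3 to 135 CPM (log2 fold change -0.89). *lips-11* fell by 1.90, from 5.77, 2.91, 3.5 and 5.27 CPM to 0.854, 1.51, 0.638 and 1.84 CPM, and was the 1 called gene of 14 other lipases. It was at 0.736 CPM in WT on glucose.

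Antimicrobial peptides had 5 of 35 downregulated and 0 upregulated members, beside 0.998% lower and 2.5% higher over all genes tested. In contrast, 21 were up and 1 down on NGM, and 19 were up and 7 down in *hlh-30* over WT. Of the 5 downregulated genes 2 did not overlap between the groups. The summed levels of the list overlapped, at 771 to 1085 CPM in *pgph-2 o/e* and 563 to 880 CPM in the double mutant. *fipr-11* was at 4.74, 7.08, 10.4 and 5.88 CPM in *pgph-2 o/e* and at 3.41, 3.25, 1.87 and 1.78 CPM in the double mutant. *fipr-6* (log2 fold change -1.29) and *nlp-28* (-1.78) had overlapping groups, and they lost their calls in 4 and 6 of the 8 fits that left out 1 library, with adjusted P values of up to 0.077 and 0.13. For *fipr-6* these were the fits without replicate 2 or 4 of *pgph-2 o/e* or replicate 1 or 4 of the double mutant, and for *nlp-28* all but those without replicate 1 of either group. The 5 calls became 2 without replicate 4 of *pgph-2 o/e* or of the double mutant. The saposin-like gene *spp-2* was at 24.6, 22.2, 24.8 and 24.3 CPM and at 7.17, 19.1, 9.57 and 10.7 CPM, and replicate 2 of the double mutant was the nearest to *pgph-2 o/e*. The change of *spp-2* was less than 2-fold without replicate 1 or 3 of the double mutant, down to 0.91 in size on the log2 scale.

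Of 18 heat shock genes 2 were upregulated and 0 downregulated, beside 2.5% and 0.998% of all genes tested, and the median change was -0.14. By the adjusted P alone 2 were higher and 5 lower, beside 6.19% higher and 7.05% lower over all genes tested. *hsp-70* was at 4.57, 5.65, 6.01 and 5.88 CPM in *pgph-2 o/e* and at 26.8, 13.8, 10.7 and 10.9 CPM in the double mutant (2.77-fold, edgeR adjusted P = 0.0076). The small heat shock gene *hsp-16.41* was at 0.8, 1.01, 1.03 and 1.57 CPM and at 11.3, 2.8, 2.69 and 1.89 CPM, with replicate 1 of the double mutant highest in both genes. The call of *hsp-16.41* was lost in 4 of the 8 fits (without replicate 1, 2 or 4 of *pgph-2 o/e* or replicate 1 of the double mutant), with adjusted P values of up to 0.079. On NGM 7 heat shock genes fell and 0 rose, and 5 of 22 were past the limits for the difference between the media, which was 4.37 for *hsp-70* and 5.53 for *hsp-16.41*.

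Metabolic lists had few calls, beside 2.5% higher and 0.998% lower over all genes tested. No called gene was found by edgeR or DESeq2 among 14 genes of glycerol and glycerol-3-phosphate, 24 of glycolysis and 20 fatty acid desaturases and elongases, although 3 of the first, *pgph-2* included, were lower by the adjusted P alone. *acs-18*, an acyl-CoA synthetase gene, was at 3.6, 3.87, 7.09 and 6.03 CPM in *pgph-2 o/e* and at 11.1, 11.9, 15.8 and 11.6 CPM in the double mutant, and was the 1 called of 62 genes of fatty acid activation and oxidation. The trehalase gene *tre-5* fell from 6.74, 5.89, 3.03 and 6.38 CPM to 1.92, 1.4, 2.78 and 2 CPM. Neither gene overlapped between groups. *ins-3*, an insulin-like peptide gene, fell by 1.45, and its call was lost in 7 of the 8 fits that left out 1 library (all but that without replicate 4 of *pgph-2 o/e*), with adjusted P values of up to 0.12. Of detoxification genes, 2 of 60 cytochrome P450 genes, 1 of 33 glutathione transferases and 0 of 62 UDP-glucuronosyl transferases were upregulated, and 0 were downregulated. By the adjusted P alone 2, 4 and 3 of these were higher and 3, 1 and 8 lower, in the same order. *cyp-35B1* rose by 1.49 and *gst-29* by 1.64. *gst-29* lost its call without replicate 1 or 4 of *pgph-2 o/e* or replicate 1 or 2 of the double mutant (edgeR adjusted P up to 0.073). *eat-2*, a pharyngeal acetylcholine receptor gene of feeding, was at 2.51 to 3.09 CPM and 1.46 to 3.5 CPM and was not called (log2 fold change -0.32, SE 0.28, adjusted P = 0.48).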

How the data were processed

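Poly-A RNA of whole *Caenorhabditis elegans* was sequenced. The authors prepared libraries from poly-T purified mRNA (NEBNext Ultra II in the labels, NEBNext Ultra in the study's methods), aligned paired-end reads to WBcel235 with Hisat2 and counted them per gene with featureCounts 1.5.0-p3, and the deposited values are these raw counts, without normalization. Strand was not stated, so overlapping and antisense genes may share reads, as may near-identical *msp* and *abu* genes.

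Fits used edgeR 4.0.16 under R 4.3.3 (TMM scaling, genes kept by filterByExpr at min.count 10 and min.total.count 15, quasi-likelihood F test, Benjamini-Hochberg adjustment over all genes tested). Each comparison was fitted on its own 8 libraries, and each interaction on 16. The fit was tested on simulated data. CPM were scaled by TMM over 32 libraries. No libraries were identical. P values measure the spread between these libraries; over 70 relabellings an exact two-sided permutation test cannot give less than 0.0286.

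Named were *hlh-30* and *pgph-2*, the 12 largest rises and falls at 5 CPM or more without overlap, up to 4 called genes of each of 47 lists (2 with the lowest adjusted P where none was called), 5 interaction genes in each direction and genes the study names. Of these, 96 were taken up here, chosen after their values were seen. The comparison and the lists were chosen with earlier results of these data known. Alternatives were DESeq2 1.42.0, its size factors, no filter, at least 10 counts in every library, a replicate block, a sperm score (mean log2 CPM, prior count 2) as covariate, all 32 libraries, the adjusted P alone and each library left out. For NGM and for *hlh-30* over WT they were added after seeing the data. Promoter motifs were not analysed here.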

Additional observations from a re-analysis of the deposited data

Results flagged for a closer look

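Some libraries stood far from the other 3 of their group in single measurements, in 12 of 206 groups of 4 looked at, where chance alone gives about 1 in 20. In the double mutant these were replicate 3 for *ssp-10* (23.9 CPM), *vit-2* (112 CPM), *bli-1* (334 CPM) and the summed other sperm genes (500 CPM), replicate 2 for *clec-67* (98.2 CPM) and *pgp-5* (63 CPM), and replicate 1 for *hsp-16.41* (11.3 CPM). In *pgph-2 o/e* they were replicate 3 for *bli-1* (194 CPM) and replicate 4 for *F17C11.4* (54.6 CPM), *col-88* (6.08 CPM), *dod-23* (0.507 CPM) and the summed oocyte genes (1286 CPM).

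Many of the genes named above also responded to the loss of *hlh-30* differently between the media or between the *pgph-2 o/e* and WT backgrounds, each by an interaction term past the limits in edgeR. Values are log2 differences, first the effect in *pgph-2 o/e* on glucose less that on NGM, then the effect in *pgph-2 o/e* on glucose less that in WT on glucose. Among collagens and *ttr-14*, *col-81* by 7.98 and 8.30, *col-60* by 7.60 and 7.30, *col-129* by 6.55 and 7.74, *col-20* by 6.77 and 7.78, *col-88* by 6.69 and 7.24, *ttr-14* by 6.13 and 6.80, *col-178* by 6.50 and 7.11, *col-120* by 6.28 and 6.57, *col-122* by 6.12 and 6.54, *col-140* by 7.06 and 7.62, *col-19* by 6.86 and 7.37 and *bli-1* by 3.20 and 3.49 were above 0. Other genes above 0 in both were *lys-3* by 1.38 and 1.44, *msp-81* by 3.43 and 4.70, *msp-76* by 3.51 and 4.71, *msp-65* by 4.46 and 5.66, *ssp-10* by 3.85 and 5.04, *vit-2* by 4.17 and 4.70, *vit-5* by 7.72 and 7.64, *perm-4* by 6.20 and 6.0, *perm-2* by 5.79 and 6.37, *acs-18* by 1.94 and 3.99, *cyp-35B1* by 2.07 and 4.41 and *dod-23* by 3.92 and 5.12. Collagens below 0 in both were *col-41* by -4.02 and -5.54, *dpy-1* by -3.47 and -4.61, *col-157* by -1.48 and -1.67 and *col-54* by -3.71 and -4.58, and other genes below 0 in both were *C40H1.7* by -1.18 and -2.21, *pqn-2* by -1.95 and -2.24, *eat-2* by -1.31 and -1.84, *idpc-7* by -3.69 and -4.41, *abu-7* by -3.30 and -3.46, *pqn-54* by -2.77 and -2.83, *nas-1* by -3.36 and -3.54, *fipr-11* by -3.24 and -3.56, *C29F3.3* by -3.49 and -5.18, *grl-4* by -3.30 and -3.80 and *fipr-6* by -3.66 and -3.73. In the medium interaction alone, *pgph-2* differed by -1.46, *srw-85* by -2.13, *adh-1* by 2.30, *mdl-1* by 1.06, *pgp-5* by -1.21, *pals-6* by -2.09, *lys-7* by 1.75, *hsp-16.41* by 5.53, *hsp-70* by 4.37 and *nlp-28* by -2.21. In the background interaction alone, *F17B5.1* differed by 2.34, *pgp-8* by -1.32, *pals-37* by 2.45, *pals-39* by 1.61, *ilys-2* by 3.62, *lips-11* by -2.30, *asp-12* by 1.25, *nas-27* by -2.03, *tre-5* by -1.52 and *gst-29* by 1.59. The medium interaction of *eat-2* did not hold its adjusted P in 12 of 16 fits that left out 1 library (up to 0.11; it held without replicate 1 of the double mutant on glucose, replicate 1 or 4 of *pgph-2 o/e* on NGM or replicate 4 of the double mutant on NGM), with DESeq2's size factors (0.055), with no filter (0.054) or with all 32 libraries (0.074). The background interaction of *gst-29* did not hold it in 8 of 16 (up to 0.1; replicates 1 and 3 of *pgph-2 o/e*, 1 and 2 of the double mutant, 2 and 3 of WT and 1 and 2 of *hlh-30*, all on glucose), with no filter (0.062) or with the replicate block (0.067). That of *nas-27* was at 0.051 without replicate 2 of *pgph-2 o/e* on glucose, and the medium interaction of *nlp-28* reached 0.059 in 5 of 16 fits (without replicates 3 or 4 of either glucose group or replicate 2 of the double mutant on NGM). With the sperm score as a covariate 34 of the 49 medium interactions lost the adjusted P and 2 changed sign, as did 40 and 5 of the 49 background interactions. The sperm score differs between these groups as well, and its part in these differences was not tested beyond the covariate given with the processing.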

How the results depend on the processing

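Direction was kept for all 96 named genes in each alternative of the comparison on glucose (83 of them could be fitted at a minimum of 10 counts in every library), and DESeq2, its size factors and both count filters changed no call among them. Of the 96, 76 were called. The fit over all 32 libraries ended 11 of these calls, the replicate block 5 and the sperm score 42, and 17 genes lost the call without at least 1 library, 6 of them only because the change became smaller than 2-fold. The 42 include *msp-81*, *msp-76*, *msp-65* and *ssp-10*, which are part of the score, so their loss is no separate result. Upregulated and downregulated genes numbered 96 and 62 with the sperm score as covariate and 931 and 1059 by the adjusted P alone, and 241 were upregulated with all 32 libraries. With 1 library left out they numbered 223 to 697 and 116 to 196. The replicate block gave 425 and 134; replicate numbers did not pair the libraries, since same-numbered libraries correlated at -0.091 to 0.195 and 1 of 4 pairs correlated best with its own number. For the medium interaction the covariate left 287 genes above and 271 below 0, the adjusted P alone gave 2405 below, and leaving out 1 library gave 1733 to 2034 and 857 to 1042. For the background interaction the covariate left 0 and 10 genes (972 and 1211 at an unadjusted P under 0.05), at least 10 counts in every library gave 1339 above 0, the adjusted P alone 2749 below, and leaving out 1 library 2101 to 2532 and 817 to 1114. On NGM the covariate left 0 and 0 genes (431 higher and 453 lower at an unadjusted P under 0.05 in edgeR), the adjusted P alone gave 3011 and 3429, and leaving out 1 library 1045 to 1254 and 1466 to 1763. In *hlh-30* over WT the covariate left 34 and 19, the adjusted P alone gave 3275 and 3626, at least 10 counts in every library 1276 lower, and leaving out 1 library 789 to 1053 and 1997 to 2538. With the covariate the medium interaction of *msp-65* became -0.13 and that of *col-157* 0.17, and the background interaction of *vit-2* became -0.50, of *vit-5* -1.31, of *bli-1* -0.02, of *dod-23* -0.59 and of *col-157* 0.24. The cause was not tested. The score does not overlap between *pgph-2 o/e* and the double mutant on glucose, so the covariate and the genotype are in part the same variable. It does not overlap on NGM either, at 4.48 to 4.70 in *pgph-2 o/e* and 2.54 to 3.33 in the double mutant. The same holds on glucose for WT, at 4.00 to 4.86, and *hlh-30* animals, at 0.30 to 2.94. The few genes left by the covariate in these 2 comparisons therefore cannot tell the score from the genotype. The score also holds the sperm genes themselves. Genes at a few counts per library, such as *dod-23*, *vit-5* and *fbxa-24*, are limited by depth.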
